A study of Mus musculus with 18 samples.

Results

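The alcohol dehydrogenases of the mouse are encoded by a cluster of neighbouring genes on chromosome 3, and the 6 members described here are Adh7, Adh1, Adh6a, Adh6b, Adh4 and Adh5, in their order along the chromosome. They were chosen by their measured differences between genotypes in naive and in CFA-treated epidermis, so those 2 contrasts are given below as description without a test. Every probe set that the platform's table pairs with exactly 1 of these genes was taken, which gave 7 probe sets among the 21789 that stand for a single gene, with 2 for Adh6b and 1 for each of the others. The arrays measured hindpaw epidermis and lumbar dorsal root ganglia (DRGs) in 6 groups of 3 biological replicates. The epidermal groups were CFA mutant, CFA control, naive mutant and naive control, and the DRG groups were naive mutant and naive control. Mutant mice were Keratin14Cre-TRPA1(fl/fl), in which Cre recombinase under the keratin 14 promoter acts on floxed Trpa1 in keratinocytes and other keratin 14-expressing cells. Control mice, labelled WT, carried the same K14Cre transgene with Trpa1+/+, so both genotypes expressed Cre. Mutant and control colonies were bred apart for several generations on a mixed background of C57BL/6, CBA and Swiss Webster. The mice were males, adult and no younger than 7 weeks. CFA is complete Freund's adjuvant, an oil emulsion of killed mycobacteria that inflames the injected hindpaw, and epidermis was taken 2 days later and set against naive skin, since no array came from a vehicle-injected paw.

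Alcohol dehydrogenases use NAD to oxidise alcohols to aldehydes, and the members of the family differ in the alcohols they prefer. Adh1, the class I enzyme, oxidises ethanol and retinol. Adh7, the class IV enzyme of stomach and other epithelia, acts on retinol, the first step towards retinoic acid, which regulates keratinocyte differentiation. Adh4 is the class II enzyme, best known from liver, and Adh5 is the ubiquitous class III enzyme, which oxidises the glutathione adduct of formaldehyde and reduces S-nitrosoglutathione. Adh6a and Adh6b are rodent members of a further class, and their substrates are less well defined. Because Adh6a, Adh6b and the pseudogene Adh6-ps1 lie side by side and resemble each other, their probes may share transcripts, and the values of Adh6a and Adh6b are uncertain in that respect.

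RefSeq start-site windows (GRCm38.p6, 250 bases before and 50 after the start) were at hand for 5 of the 6 members, with 2 windows for Adh5. The bases before the start are printed for the 3 genes that changed most with CFA and had a window, and for the second start of Adh5, whose level changed least among the expressed members. They lie on the + strand at chr3:138217523-138217772 for Adh7, chr3:138277335-138277584 for Adh1, chr3:138313036-138313285 for Adh6a and chr3:138442843-138443092 for Adh5. Capitals mark matches, on either strand, to the motifs searched.
Adh7: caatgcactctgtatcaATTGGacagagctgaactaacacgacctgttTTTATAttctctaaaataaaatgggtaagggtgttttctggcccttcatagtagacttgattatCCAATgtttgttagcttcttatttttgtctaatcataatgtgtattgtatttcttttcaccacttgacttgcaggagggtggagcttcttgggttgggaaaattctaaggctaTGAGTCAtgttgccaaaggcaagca
Adh1: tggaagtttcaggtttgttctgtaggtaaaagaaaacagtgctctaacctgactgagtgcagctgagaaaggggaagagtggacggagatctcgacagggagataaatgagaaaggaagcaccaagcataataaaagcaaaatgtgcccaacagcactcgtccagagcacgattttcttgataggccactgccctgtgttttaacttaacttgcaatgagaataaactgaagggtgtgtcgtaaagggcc
Adh6a: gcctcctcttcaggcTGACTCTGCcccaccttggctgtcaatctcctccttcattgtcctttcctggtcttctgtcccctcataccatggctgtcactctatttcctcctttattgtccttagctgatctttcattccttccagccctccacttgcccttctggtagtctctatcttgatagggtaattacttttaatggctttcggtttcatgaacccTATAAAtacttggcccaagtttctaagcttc
Adh5: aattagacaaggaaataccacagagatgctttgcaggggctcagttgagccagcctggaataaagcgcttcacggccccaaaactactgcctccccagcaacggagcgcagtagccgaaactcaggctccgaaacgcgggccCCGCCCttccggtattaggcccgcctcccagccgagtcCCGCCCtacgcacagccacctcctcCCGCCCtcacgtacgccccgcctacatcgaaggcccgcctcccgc

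The motifs were TATAAA (the TATA box), CCAAT (the core of the CAAT box), GGGCGG (a GC box), CACGTG (an E-box), TGACTCA with its reverse complement TGAGTCA (the AP-1 site), TGACNNNGC (the core of the antioxidant response element, which can overlap an AP-1 site), AGGTCA (a half-site of nuclear receptors) and TTGCGNAA (a C/EBP-type site). The Adh7 window held TGAGTCA at position -25 from the start, a motif present in 5.20% of all 32851 windows, together with 2 CCAAT matches and a TATAAA match on the opposite strand at -202. In Adh6a, TATAAA stood at -31 (13.6% of all windows) and TGACNNNGC at -235 (12.4%). Adh1 had no match before its start and CACGTG at position 5 after it (7.15%). The Adh4 window, not printed, held AGGTCA at -133 and at -11 (16.3%), and CCAAT on the opposite strand at -90 (37.4%). The printed Adh5 window differed in composition from those of the other members, with 65.0% G and C, 26 CpG and 3 matches to GGGCGG (35.7%), against 39.3% to 46.0% and 1 to 6 CpG in Adh7, Adh1, Adh6a and Adh4, and 47.0% and 3 CpG at the first start of Adh5. TATAAA occurred in both Adh7 and Adh6a, and also at -207 from the first start of Adh5, whose window is not printed. No motif occurred in all 3 of Adh7, Adh1 and Adh6a. A match is a description of letters, and no binding was measured here.

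Values are on the log2 scale, 1 per probe set and array, as the authors deposited them from RMA, a method that removes background, equalises the distributions of arrays and combines the probes of each set. Epidermal and DRG arrays had different medians (5.37 to 5.48 in epidermis and 6.51 to 6.58 in DRGs) and were treated as normalised apart. Background was taken on each array as the 95th percentile of the signals of 1223 chemosensory receptor probe sets (odorant, vomeronasal and trace-amine), and lay at 4.57 to 4.78 in epidermis and 5.78 to 5.93 in DRGs. Across probe sets, Pearson's r between replicates was 0.986 to 0.993, and the number of arrays limits the precision. Markers of basal keratinocytes (7 of 7) and of differentiated keratinocytes (9 of 9 measured) exceeded background on every epidermal array, as did 8 of 8 measured markers of sensory neurons on every DRG array. Trpa1, the targeted gene, exceeded background on 0 of 12 epidermal arrays, so it does not check the genotype labels there. In DRGs it read 8.84, 8.44 and 8.54 on mutant arrays and 8.99, 8.89 and 9.08 on control arrays, and whether its probes lie in the deleted exons is not stated in the paper or the labels.

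Across the epidermis, Adh7, Adh1, Adh6a, Adh6b and Adh5 were expressed above background in at least 1 group, and Adh4 was not. Adh7 read 9.58, 9.35 and 8.97 on the CFA mutant arrays and 7.05, 7.16 and 6.86 on the CFA control arrays. On naive arrays it read 9.62, 9.86 and 9.60 in mutant and 9.48, 9.08 and 9.43 in control epidermis. The 3 CFA control arrays thus stood far below the other 9, whereas the CFA mutant arrays overlapped those of naive control skin. The means were 9.30 ± 0.31 in CFA mutant and 7.02 ± 0.15 in CFA control, and 9.70 ± 0.14 in naive mutant and 9.33 ± 0.22 in naive control skin (SD, n = 3 here and below). From high to low the order was naive mutant, naive control, CFA mutant and CFA control, and those of naive control and CFA mutant skin did not differ beyond their spread.

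Adh1 read 8.58, 8.34 and 7.93 on the CFA mutant arrays and 9.88, 10.22 and 9.39 on the CFA control arrays. Its naive values were 9.44, 9.36 and 9.16 in mutant and 10.71, 11.07 and 10.52 in control epidermis. Every mutant array was below every control array of the same treatment, and every CFA array below every naive array of the same genotype. The means were 8.28 ± 0.33 in CFA mutant and 9.83 ± 0.42 in CFA control, and 9.32 ± 0.15 in naive mutant and 10.77 ± 0.28 in naive control skin. From high to low the order was naive control, CFA control, naive mutant and CFA mutant, and among neighbours in it only CFA control and naive mutant arrays overlapped.

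Adh6a had its highest values in naive control epidermis and lay close to background elsewhere. On the CFA mutant arrays it read 4.68, 4.69 and 4.82, of which 1 exceeded background, and on the CFA control arrays 5.17, 5.75 and 5.52. In naive skin it read 5.01, 5.18 and 5.04 in mutant and 7.31, 8.38 and 6.80 in control mice. The means were 4.73 ± 0.08 in CFA mutant and 5.48 ± 0.29 in CFA control, and 5.07 ± 0.09 in naive mutant and 7.50 ± 0.81 in naive control skin. The naive control arrays stood above all others with the widest spread, the CFA control and naive mutant arrays overlapped, and the CFA mutant arrays were lowest.

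Of the 2 probe sets for Adh6b, the one numbered 10496457 carried signal. It read 4.65, 4.43 and 4.38 on the CFA mutant arrays, all below background, and 5.36, 5.55 and 4.71 on the CFA control arrays. The naive values were 5.57, 5.33 and 5.54 in mutant and 6.71, 7.39 and 6.67 in control epidermis. Means were 4.49 ± 0.14 in CFA mutant and 5.21 ± 0.44 in CFA control, and 5.48 ± 0.13 in naive mutant and 6.92 ± 0.41 in naive control skin. As for Adh6a, naive control skin stood above the other groups and CFA mutant skin below them, and the CFA control and naive mutant arrays overlapped. The other Adh6b probe set (10496455) lay below background on all 12 arrays, at 3.92 to 4.62, so the 2 probe sets disagree on whether Adh6b was detected.

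Adh5 read 8.27, 8.12 and 8.32 on the CFA mutant arrays and 8.22, 8.45 and 8.45 on the CFA control arrays. In naive skin it read 8.18, 8.10 and 8.26 in mutant and 8.43, 8.26 and 8.27 in control mice. The 4 groups overlapped, and neighbours in the order of their means (8.18 to 8.37) did not differ beyond their spread. Adh4 remained below background on all 12 arrays, at 3.67 to 4.11, and its level was not detectable.

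**Figure D1:**
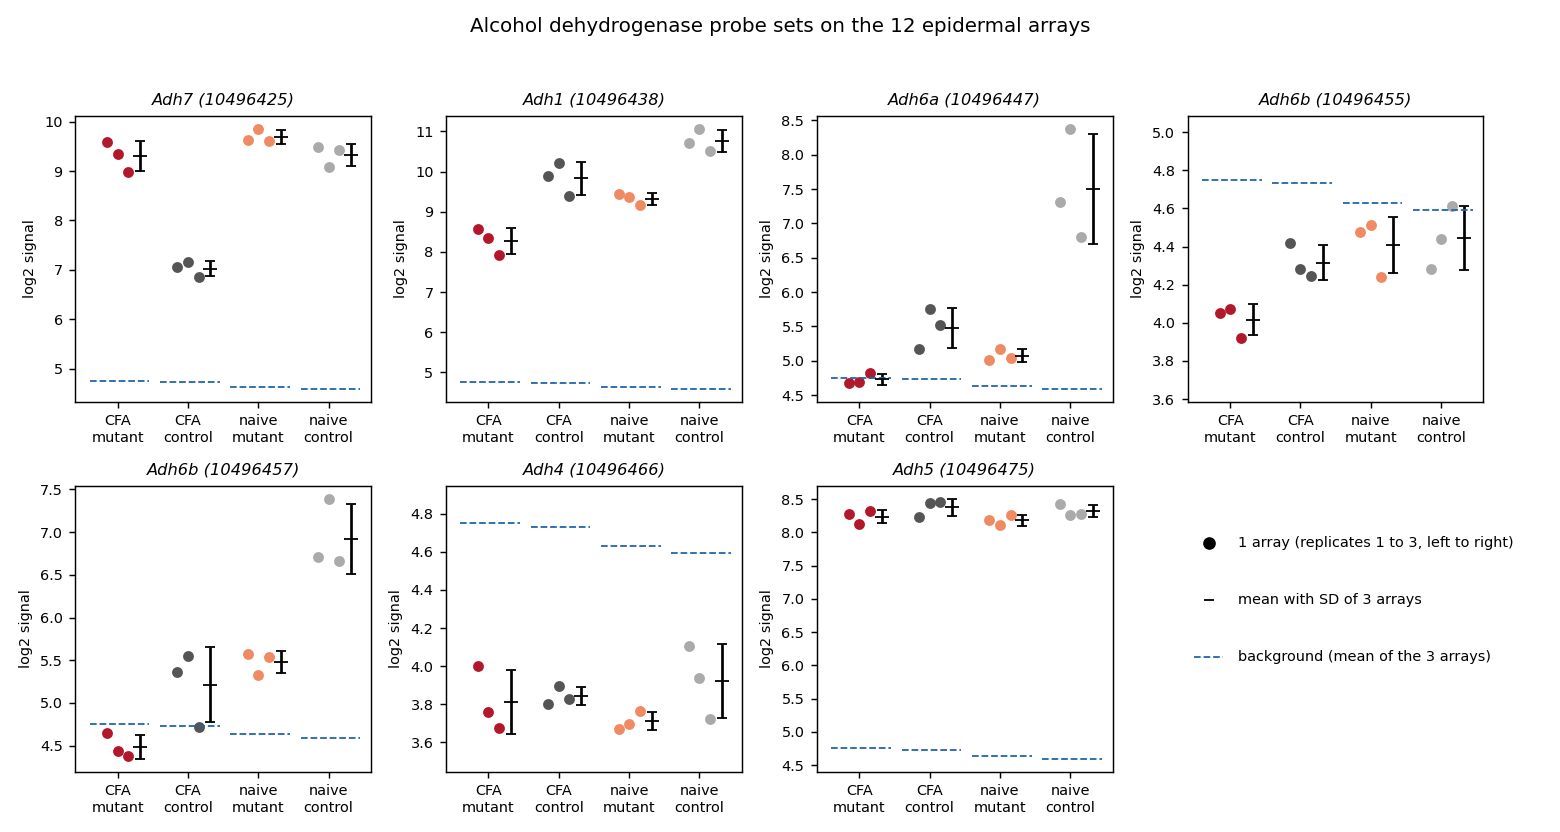
Log2 signal of the 7 alcohol dehydrogenase probe sets (1 panel each, y axis) in CFA mutant, CFA control, naive mutant and naive control epidermis (x axis), with 1 point per array, the mean with SD of 3 arrays, and the background as a dashed line. Adh7 is low only in CFA control skin, Adh1, Adh6a and Adh6b (10496457) are highest in naive control and lowest in CFA mutant skin, Adh5 is level, and Adh4 and the other Adh6b probe set lie below background.

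The first comparison asked how the cluster responded to CFA. It was made over the 12 epidermal arrays as the mean of both CFA groups minus the mean of both naive groups. Where groups vary equally, it is independent of the genotype contrasts that chose the members. The SDs of naive control and naive mutant skin differed for Adh6a (0.81 and 0.09) and Adh6b at 10496457 (0.41 and 0.13). For these 2 probe sets some dependence on the choice may remain. Adh7 fell 2.55-fold (log2 fold change -1.35, SE 0.11, adjusted p = 3.5e-07 by limma, adjusted by Benjamini-Hochberg over all 23410 tested). The change was 2.27-fold downwards for Adh6a (-1.18, SE 0.20, adjusted p = 0.000361 by limma, with 1 of 3 CFA mutant arrays above background) and 1.99-fold for Adh1 (-0.99, SE 0.15, adjusted p = 0.000116). Adh6b at 10496457 fell by 1.35 on the log2 scale (SE 0.15, adjusted p = 8.31e-06 by limma), with its CFA mutant values below background, and its dim probe set by 0.26 (adjusted p = 0.0103), a difference between signals below background that gives no fold. Adh5 was not called (0.06, 95% interval -0.08 to 0.20, adjusted p = 0.514), although a further quantile normalisation gave 0.17 with adjusted p = 0.0312. Adh4 was not called either (0.01, adjusted p = 0.927).

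In all, 5 of 7 probe sets, the dim one for Adh6b included, were lower after CFA and 0 higher, where 20.4% of all probe sets tested were lower and 23.3% higher, and the members' median log2 fold change was -0.99 beside 0.04 over the probe sets of single genes. Adh7, Adh1, Adh6a and Adh6b, which fell, lie next to each other at one end of the cluster. Adh4 and Adh5, which were not called, lie at the other. Adh4 was below background on all 12 arrays, so a fall of it could not have been seen. Transcripts of cell layers moved with the same contrast. Of 9 differentiated keratinocyte markers, 7 fell and 0 rose (median -1.28), and their summed linear signal was 24356 to 29094 in CFA mutant and 23661 to 26090 in CFA control skin, against 41883 to 42624 in naive mutant and 38356 to 41378 in naive control skin. All 7 basal keratinocyte markers rose (median 0.50), with sums of 19352 to 21682 over the CFA arrays and 15142 to 15585 over the naive arrays. Of 8 sweat gland and duct markers 2 fell, Aqp5 (-1.24) and Slc12a2 (-0.43), and 0 rose (median -0.08), with sums of 816 to 1068 with CFA and 1265 to 1399 without. Of 6 neutrophil markers, whose sum was 487 to 6575 with CFA and 193 to 882 without, 3 were called higher, namely S100a8 (2.48) and S100a9 (2.20), which keratinocytes can also make, and Ly6g. Cxcr2 was lower (-1.35), and Ly6g and Ngp, which define neutrophils, were below background on all 12 arrays. The part of these shifts in the members' fall was not tested, and in bulk tissue fewer cells of a type and less RNA per cell cannot be told apart.

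Within each genotype, the same comparison used 3 CFA and 3 naive arrays, which are also arrays of the contrasts that chose the members. That choice can therefore enlarge or shrink the changes within a genotype, and their p-values do not allow for it. In mutant epidermis, 4 of 7 probe sets were lower and 0 higher (13.1% of all probe sets were lower there and 12.9% higher), with a median of -0.39 beside 0.04 over all. Adh1 fell 2.06-fold (-1.04, SE 0.16, adjusted p = 0.0020 by limma) and Adh6b at 10496457 at least 1.66-fold (adjusted p = 0.000253), where a fold given as at least puts the background in place of a dimmer group below it. Adh6a fell by 0.35 (SE 0.08, adjusted p = 0.0155 by limma), with 1 of 3 CFA arrays above background, and the dim Adh6b probe set by 0.39 (adjusted p = 0.0168). Adh7 was not called, at -0.40 (SE 0.15, adjusted p = 0.0864 by limma), although its 3 CFA arrays lay below its 3 naive arrays. The 4 calls became 2 without naive mutant replicate 2, when Adh6a and the dim Adh6b probe set lost theirs (adjusted p = 0.0552 and 0.0585). The Adh6a call was also lost without CFA mutant replicate 2 (0.0507), and the dim Adh6b call without CFA mutant replicate 3 (0.0501) or naive mutant replicate 1 (0.0622). Adh7 was called without CFA mutant replicate 1 (-0.54, adjusted p = 0.0314).

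In control epidermis, 4 of 7 probe sets were lower and 0 higher (14.8% of all were lower and 11.5% higher), with a median of -0.94 beside 0.03. Adh7 fell 4.95-fold (-2.31, SE 0.13, adjusted p = 3.36e-06 by limma), Adh6a 4.04-fold (-2.01, SE 0.34, adjusted p = 0.0022), Adh6b at 10496457 3.27-fold (-1.71, SE 0.24, adjusted p = 0.00084) and Adh1 1.92-fold (-0.94, SE 0.21, adjusted p = 0.00979). For each of these genes the CFA and naive arrays did not overlap. With each probe set's own variance in place of limma's moderated one, closer to the test that the study's methods name, Adh7 and Adh6b were called, and Adh1 and Adh6a were not (adjusted p = 0.114 and 0.0725).

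**Figure D2:**
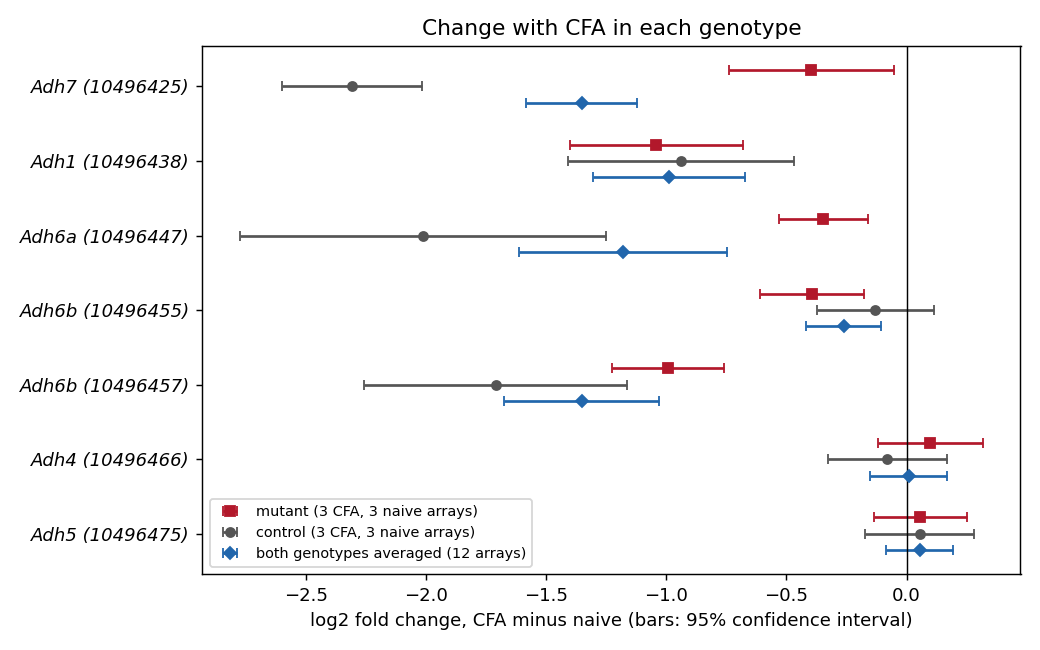
Log2 fold change, CFA minus naive (x axis), for each alcohol dehydrogenase probe set (y axis) in mutant epidermis, in control epidermis and averaged over both, with 95% confidence intervals from limma. The fall of Adh7 is -0.40 in mutant and -2.31 in control skin, that of Adh1 is -1.04 and -0.94, and Adh5 lies near 0 in each.

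The response to CFA was then set side by side between genotypes, as a description, since this difference is made of the contrasts that chose the members. The estimate for Adh7 was 1.91 (SE 0.21, mutant response minus control response), so that its fall was smaller in mutant skin, and it kept to 1.77 to 2.08 without any 1 array. For Adh6a it was 1.67 (SE 0.40), with CFA mutant values at background, which bounds the fall there. Adh6b at 10496457, below background in CFA mutant skin, had 0.72 (SE 0.30). Adh1 had -0.10 (95% interval -0.74 to 0.53), so its responses in the genotypes were close in estimate while the interval leaves a difference of either sign. Estimates of at least 2-fold were reached by 2 of 7 probe sets, Adh7 and Adh6a, and by 0.585% of all probe sets.

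Between genotypes, the values that chose the members ran as follows. In naive epidermis, 4 of 7 probe sets did not overlap between mutant and control arrays, against 16.6% of all probe sets. Adh1, Adh6a and Adh6b at 10496457 were lower in mutant skin, with log2 differences of -1.45 (SE 0.14), -2.42 (SE 0.34) and -1.44 (SE 0.19), and Adh7 was higher by 0.37 (SE 0.12). In CFA epidermis, 5 of 7 did not overlap (14.3% of all), namely the same 4 and the dim Adh6b probe set. Adh7 was 2.28 higher in mutant skin (SE 0.15) on the log2 scale, Adh1 had a difference of -1.55 (SE 0.22) and Adh6a of -0.76 (SE 0.14, with 1 of 3 CFA mutant arrays above background, so that its full size is not measured), and Adh6b at 10496457 at least 1.38-fold lower. Adh7 and its neighbour Adh1 therefore differed in opposite directions between genotypes under both conditions. Among marker sums in naive skin, those of differentiated keratinocytes were 41883 to 42624 in mutant and 38356 to 41378 in control mice. Those of 6 Langerhans cell and macrophage markers were 1128 to 1303 in mutant and 1043 to 1111 in control mice. Those of 8 fibroblast markers were 1022 to 1087 in mutant and 1139 to 1185 in control mice. None of these sums overlapped between genotypes, while basal keratinocyte sums did. Dcn, the brightest fibroblast marker, had a lower mean in mutant skin (9.51 against 9.72). Col1a1, Col1a2, Col3a1, Pdgfra and Col6a1 had higher means there, and the fibroblast list's median log2 difference was 0.03. The 6 Langerhans cell and macrophage markers did not move together in naive skin. Cd74, the brightest, had a higher mean in mutant skin (9.39 against 9.09), as had Cd68 and the undetected Adgre1. Csf1r (7.04 against 7.19), Cd207 and Fcgr3 had lower means there, and the list's median log2 difference was -0.01. In CFA skin both keratinocyte sums overlapped between genotypes, whereas the 6 markers of Langerhans cells and macrophages summed to 1031 to 1152 in CFA mutant and 1435 to 1635 in CFA control skin, with 5 of 6 above background on every array of each group. Cd74 (9.56 against 9.98), Csf1r, Cd207, Fcgr3 and the undetected Adgre1 had lower means in CFA mutant skin, and Cd68 a higher one (5.76 against 5.69). The list's median log2 difference was -0.56. The part of any of these markers in the members' differences was not tested.

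In DRGs, Adh1 and Adh5 were detected, and 0 of 7 probe sets were called between genotypes (0.0726% of all probe sets were called in either direction). Adh1 read 6.61, 6.83 and 7.02 on mutant arrays and 6.70, 6.68 and 7.01 on control arrays, and the groups overlapped (0.02, 95% interval -0.26 to 0.31, adjusted p = 0.975 by limma). Adh5 read 9.13, 9.19 and 9.04 on mutant arrays and 9.05, 9.16 and 9.11 on control arrays, again with overlap (0.02, 95% interval -0.14 to 0.18, adjusted p = 0.966 by limma).Adh7, Adh6a, Adh6b and Adh4 were below background on all 6 DRG arrays, so their levels there were not detectable. At an unadjusted p under 0.05, 0 of 7 passed, and 0 were called with unmoderated variances. Differentiated keratinocyte markers summed to 1008 on mutant replicate 1 and 726 on control replicate 3, against 573 to 681 on the other 4 DRG arrays, and the count was 0 without these 2 arrays, an alternative chosen after seeing the data.

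**Figure D3:**
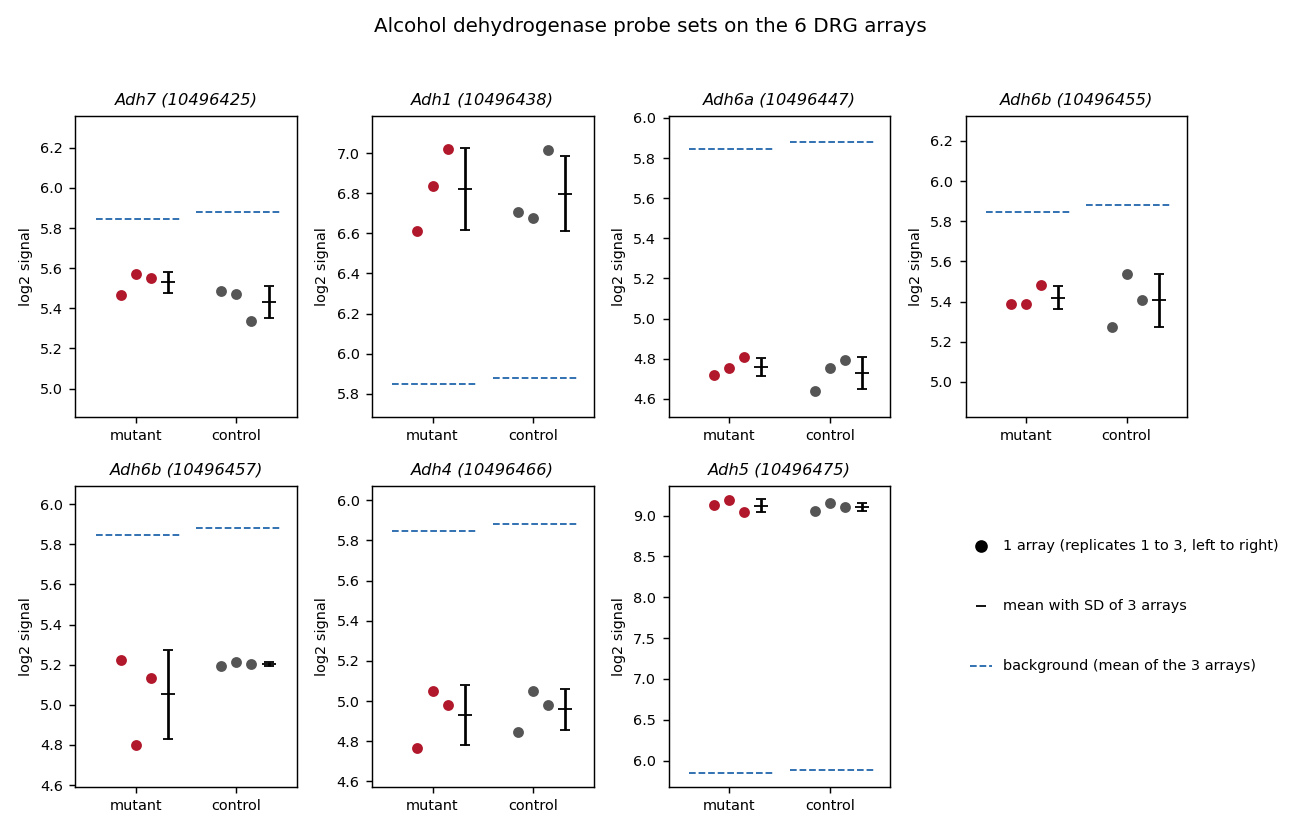
Log2 signal of the 7 probe sets (1 panel each, y axis) on the mutant and control DRG arrays (x axis), with 1 point per array, the mean with SD of 3 arrays, and the background as a dashed line. Adh1 and Adh5 lie above background with overlapping genotypes, and the other 5 probe sets lie below it.

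Genes outside the cluster that handle retinol were examined next, 41 of 42 listed genes being measured. With CFA, averaged over genotypes, 16 fell and 6 rose, where 20.4% of all probe sets were lower and 23.3% higher, and the median was -0.09 beside 0.04 over all single-gene probe sets. Of the 41, 34 exceeded background on at least 1 epidermal array, and genes below it were not left out of these counts. The largest falls were those of Dhrs9, a short-chain dehydrogenase that oxidises retinol (-3.31, SE 0.10), and of the retinol dehydrogenases Rdh1 (-2.38, SE 0.10) and Rdh9 (-2.28, SE 0.11), with adjusted p-values of 3.6e-11 to 4.1e-09 by limma. Dhrs9 read 5.02, 5.13 and 5.09 on CFA mutant and 5.35, 5.41 and 4.98 on CFA control arrays, against 8.63, 8.11 and 8.39 on naive mutant and 8.64, 8.68 and 8.39 on naive control arrays. The CFA and naive arrays were far apart, and the genotypes overlapped in each condition. Rdh1 and Rdh9 belong to a group of closely related genes, so their probes may share transcripts. Stra6, the receptor for retinol-binding protein, fell by 1.71 (SE 0.09), and Rdh11, which reduces retinal, and Rdh10, which makes retinal from retinol, by 1.43 and 1.02. By genotype, 12 genes of the list fell and 4 rose in mutant epidermis, where 13.1% of all probe sets were lower and 12.9% higher. In control epidermis 15 fell and 3 rose, where 14.8% of all were lower and 11.5% higher. Cyp26b1, which degrades retinoic acid, was among the 6 largest falls in mutant skin (-1.14, adjusted p = 5.68e-05 by limma). In DRGs 0 of the 41 were called. Smallest there was the p of Rxrg, a retinoid X receptor (-0.31, unadjusted p = 0.00686, adjusted p = 0.482 by limma).

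**Figure D4:**
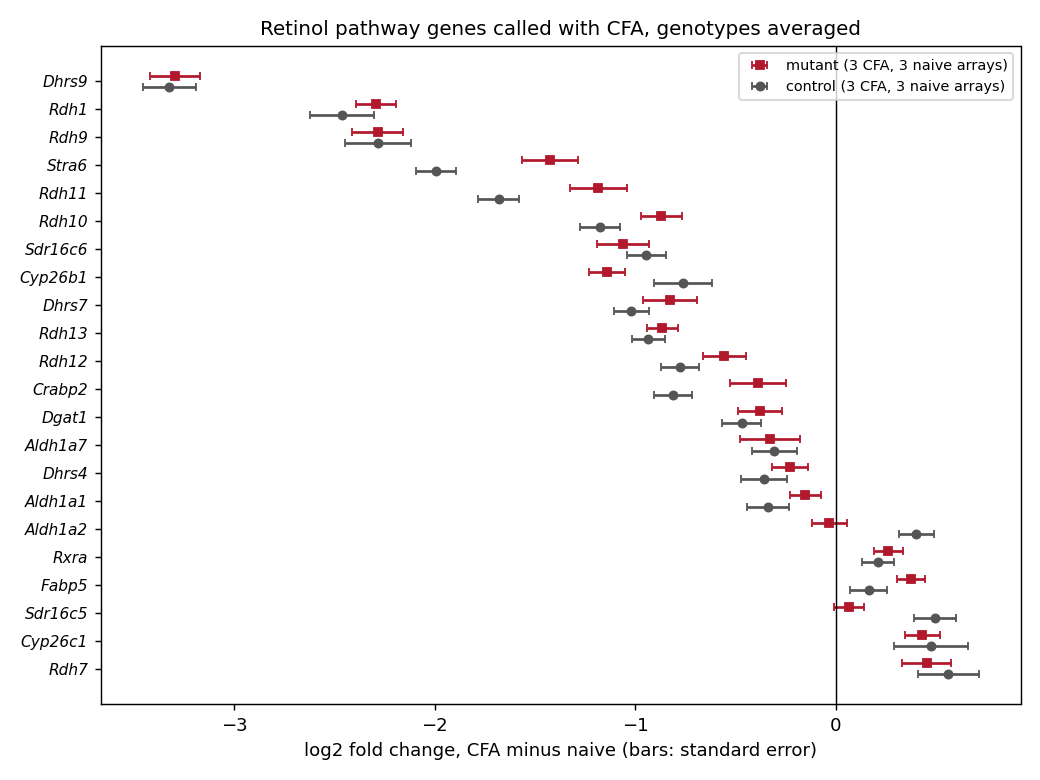
Log2 fold change, CFA minus naive (x axis), of the 22 retinol pathway genes called with CFA over both genotypes (y axis), in mutant and in control epidermis, with standard errors. Dhrs9, Rdh1 and Rdh9 fell by more than 2 log2 units in each genotype, and Rdh7, Aldh1a2 and Aldh1a7 were below background on all 12 epidermal arrays.

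Of 27 listed genes that handle other alcohols, aldehydes or S-nitrosoglutathione, 24 were measured, and 7 fell and 3 rose with CFA over both genotypes (median 0.00), beside 20.4% lower and 23.3% higher among all probe sets. Those lower included Cat, catalase, which can also oxidise ethanol (-0.73, SE 0.09, adjusted p = 1.32e-05 by limma), and the aldehyde dehydrogenases Aldh3a1 (-0.72), Aldh3a2, which acts on fatty aldehydes (-0.63), and Aldh3b2 (-0.57). Akr1b8, an aldo-keto reductase, rose by 0.55, and Akr1e1, of the same superfamily, fell by 0.53 on average. In mutant skin 5 fell and 1 rose, namely Esd, the hydrolase that follows Adh5 in formaldehyde oxidation (0.29, adjusted p = 0.0295 by limma). Among all probe sets 13.1% were lower there and 12.9% higher. In control skin 7 fell and 3 rose, where 14.8% of all were lower and 11.5% higher. Akr1e1 was not called in mutant skin (0.08, adjusted p = 0.721 by limma) and had the largest fall of the list in control skin (-1.14, adjusted p = 0.0108). In DRGs 0 were called, with Akr1e1 at 1.11 and adjusted p = 0.247.

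The chromosomal surroundings of the cluster were taken as the 8 protein-coding genes on each side and the genes between members, 21 in all, of which 16 were measured. With CFA, 6 neighbours fell and 1 rose (median -0.19), beside 20.4% lower and 23.3% higher among all probe sets. On the Adh7 side these were Trmt10a, a tRNA methyltransferase next but one to Adh7 (-0.51, SE 0.09), H2az1, a histone variant (-0.24), and Dnajb14, a membrane co-chaperone (-0.23). On the Adh5 side they were Metap1, a methionine aminopeptidase and the next gene after Adh5 (-0.32, SE 0.07), Eif4e, the cap-binding initiation factor (-0.83, SE 0.06), and Tspan5, a tetraspanin (-0.67, SE 0.07). Eif4e had 3 probe sets and H2az1 had 2, and the values given are those of the brightest alone. The dimmer ones are not described here, and whether the brightest match this locus was not checked. Bmpr1b, which rose, was below background on all 12 arrays. Adh5, with no call, thus stood between Adh6b and Metap1, the nearest genes detected on either side, both of which fell, and the pseudogene Adh6-ps1 was below background. Trmt10a, Eif4e and Tspan5 were lower in mutant skin, and these with Metap1 in control skin, and 0 neighbours were called in DRGs.

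**Figure D5:**
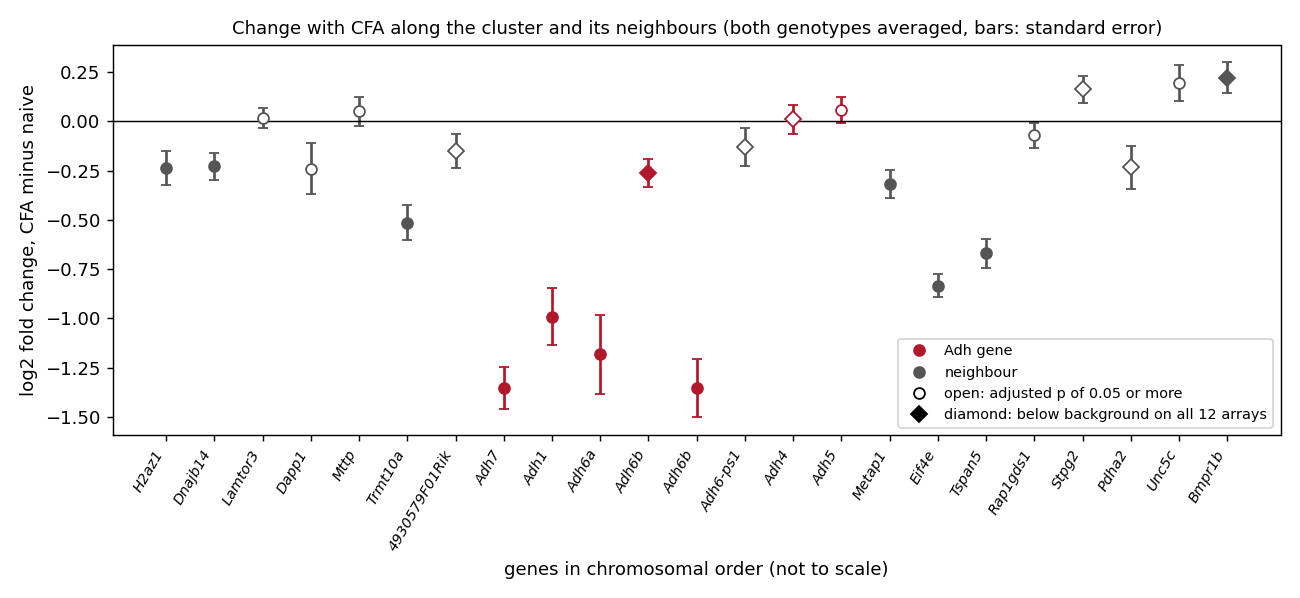
Log2 fold change, CFA minus naive over both genotypes (y axis, bars are standard errors), for the alcohol dehydrogenase probe sets and their measured neighbours in chromosomal order (x axis, not to scale). Adh7, Adh1, Adh6a and 1 Adh6b probe set lie between -0.99 and -1.35, below all neighbours, of which Eif4e is lowest at -0.83. Each neighbour is drawn from its brightest probe set alone.

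Lastly, the pattern of each detected member over the 12 epidermal arrays was set against the 15272 other single-gene probe sets above background on at least 6 of them. These correlations describe arrays that share groups and carry no p. The pattern of Adh7 was most like those of Plcd1 (r = 0.98), Slc6a20a, Tmem165, Itpk1 and Galnt6 (each 0.96). Adh1 ran with Adh6b at 10496457, Sec23b, Maff, Smim8 and Arsk (0.91 to 0.92), and Adh6a with Sec23b (0.94), Lynx1, Adh6b, Spon2 and Acadm (0.91 to 0.93). For Adh6b the closest were Maff (0.96), Sec23b, Ly6g6g, Pik3c2a and Med4 (0.93 to 0.95), and for Adh5 Lrrc49, Cdk5rap2, Stt3a, Ercc6l and Rfc2 (0.87 to 0.91). Among the members themselves, Adh1, Adh6a and Adh6b correlated with each other at 0.87 to 0.92, whereas Adh7 had -0.15 with Adh1, 0.04 with Adh6a, 0.19 with Adh6b and -0.54 with Adh5. With deviations from group means alone, r was 0.84 for Adh1 with Adh6b, 0.45 for Adh1 with Adh6a and 0.57 for Adh6a with Adh6b. For Adh6a with Lynx1 it was 0.02. Over the 6 DRG arrays and 15870 probe sets, Bckdha, B3gnt5, Dse, Dnttip1 and Smc2 were most like Adh1 (0.97 to 0.99), and Tbc1d24, Hmcn1, Prickle3, Cstf2t and Sema6c most like Adh5 (0.97 to 0.99). The highest of so many r over 6 arrays can be this large among unrelated genes, so these names are a ranking alone.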

How the data were processed

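Gene expression was measured in epidermis and DRGs on 18 Affymetrix Mouse Gene 1.0 ST arrays, 3 biological replicates in each of 6 groups. Groups were taken from the labels. The deposited values are log2 signals that the authors made with RMA in Partek software, and the versions used were not stated. The study's own comparisons used ANOVA and called genes at 2-fold or more with p under 0.05 after control of the false discovery rate, which was left out only in naive epidermis. Of 35556 probe sets, 23410 have at least 1 gene in the platform's annotation and were tested, 1621 of them have several genes and name none, and 12146 are unnamed. No value was missing and no filter on low values was applied. Of the 7 member probe sets, 5 exceeded background on at least 3 epidermal arrays and 2 on at least 3 DRG arrays.

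Groups were compared within a tissue by linear models with moderated variances (limma 3.58.1, R 4.3.3), two-sided, on the arrays of the groups compared, and on all 12 epidermal arrays for the averaged response and the difference between genotypes. Adjustment was by Benjamini-Hochberg, and a probe set was called at an adjusted p under 0.05. Where a group lay below background on all its arrays, the fold is the brighter group's mean over the higher of each array's background and the dim value. The fits were tested on simulated data. Tables were read with the data.table package, version 1.17.8, and tables, promoter windows and figures handled with Python 3.11.15, numpy 2.4.6, pandas 2.3.3 and matplotlib 3.10.9. Where a listed gene had several probe sets, the brightest was taken.

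The members, gene lists, motifs and comparisons were chosen with earlier results of these data known. Named genes are all members, up to 6 genes of each pathway list per comparison (those called with the largest change, otherwise those with the smallest p), every called neighbour, the 5 probe sets most like each detected member and Trpa1. Alternatives were a further quantile normalisation, centring arrays on their medians, a filter on dim probe sets, inclusion of unnamed probe sets, limma's trend and robust options, ordinary ANOVA, replicate number as a block, all epidermal groups in 1 fit, a 2-fold limit beside the unadjusted or the adjusted p (as in the study), and fits that left out 1 array at a time. Protein sequences were not used here. Which mice gave both tissues was not stated.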

Additional observations from a re-analysis of the deposited data

How the results depend on the processing

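Each count of member probe sets was recomputed under every alternative. Requiring at least 2-fold and an unadjusted p below 0.05, the averaged CFA response gave 3 lower probe sets and the response in mutant skin gave 1, since a fold limit leaves out the smaller falls. With the adjusted p in its place, an alternative chosen after seeing the data, the counts were 3 for the averaged response, 1 in mutant skin, 3 in control skin and 0 in DRGs. Under an ordinary ANOVA the response in control skin gave 2. Shares of all probe sets under the fold limits and the ANOVA are not given here. The called shares above hold for limma's adjusted p alone and are not a measure for these counts. Leaving out 1 array at a time gave 5 to 5 for the averaged response, 2 to 5 in mutant skin (2 without naive mutant replicate 2), 4 to 4 in control skin, 0 to 0 in DRGs, 4 to 6 for non-overlapping probe sets in naive and 5 to 6 in CFA epidermis, and 2 to 2 for the difference in response. The other counts stayed within 1.5 times. Of the log2 fold changes of single members under another normalisation, the replicate block or a left-out array, 518 kept their side of the threshold or stayed within the spread between replicates, 2 gained a call, 5 lost one and 0 called values reversed; calls lost under the ANOVA or the fold limits are counted above and not here.

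Same-numbered replicates did not deviate together in every pair (r of -0.24 to 0.23 over the pairs), so the numbers were not taken to pair the samples. With the replicate block the counts were 0 in DRGs, 5 for the averaged response, 4 in mutant skin, 4 in control skin and 2 for the difference in response (the last chosen after seeing the data), so the block changed no count. With 3 arrays in a group and signals of Adh6a and Adh6b near background after CFA, falls of these genes in mutant skin are bounded by the array's floor rather than measured in full.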
